A study of Homo sapiens with 6 samples.

Results

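The genes described here encode the subunits of the respiratory chain and ATP synthase that are made from nuclear DNA. They were taken by symbol from a table of gene levels: NDUF genes of the A, B, C, S and V series, SDHA to SDHD, the UQCR genes, the COX4 to COX8 genes and the ATP5 genes. The pattern matched 100 gene rows. Left out were 4 readthrough or antisense names with a hyphen, 9 NDUFAF assembly factor rows (1 of them a pseudogene) and COX6B1, which the rule excludes. This left 86 genes of 42495 in all, of which 85 are protein coding and 1 is the pseudogene UQCRBP1. Complex I has 37 of them, complex II 4, complex III 9, complex IV 16 and complex V, the ATP synthase, 19. COX4I2, the other isoform of COX4I1, and the subunits encoded by mitochondrial DNA were not analysed here.

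Cells of Panc-1, a widely used line from a human pancreatic carcinoma, were kept for 72 h in medium conditioned by cancer-associated fibroblasts (CAFs). In the CAFS-CM group the medium came from the line CAFS1, grown from the tumour of a platinum-sensitive patient, and in the CAFR-CM group from CAFR1, grown from that of a platinum-resistant patient. Each group had 3 samples and its medium came from 1 CAF line, so that a difference between the media cannot be told apart from a difference between these lines, and p-values speak only of the spread among these samples. Total RNA was depleted of rRNA and sequenced, and the study asked which RNAs of the tumour cells differ between the media.

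Complexes I and II pass electrons from NADH and succinate to coenzyme Q, complex III passes them on to cytochrome c, and complex IV passes them to oxygen. Complexes I, III and IV pump protons across the inner mitochondrial membrane, and complex V uses the returning protons to make ATP. Some positions are filled by isoforms from different genes. NDUFA4L2, a paralogue of the complex IV subunit NDUFA4, and COX4I2 are known as isoforms induced in hypoxia, and the nuclear genes of the chain are known targets of the factors NRF1, GABP (which binds ETS motifs) and YY1.

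Promoter sequences are shown for the genes that the results turn on, to let a reader see the letters that a hypoxia-inducible factor or the factors of respiratory genes are known to bind. They are RefSeq windows of GRCh38.p14 from 250 bases before to 50 after a gene's start, written 5′ to 3′ on the gene's strand. Capitals mark ACGTG or GCGTG (the hypoxia response core), TGCGCA (inner bases of the NRF1 motif), CCGGAAG (ETS) or AAGATGG (YY1) on either strand. NDUFA4L2 (chr12:57240713-57241012, minus strand) holds GCGTG at -204 and -20 from the start. The window of its partner NDUFA4 (chr7:10940104-10940403, minus strand) holds none of these letters. COX6B2 (chr19:55354670-55354969, minus strand) holds GCGTG on the reverse strand at -162, and ATP5MC1 (chr17:48892537-48892836, plus strand) has ACGTG on both strands, overlapping, at 5 and 6. NDUFB4 (chr3:120596086-120596385, plus strand) holds TGCGCA at -154, and NDUFS4 (chr5:53560389-53560688, plus strand) AAGATGG at 22.
NDUFA4L2: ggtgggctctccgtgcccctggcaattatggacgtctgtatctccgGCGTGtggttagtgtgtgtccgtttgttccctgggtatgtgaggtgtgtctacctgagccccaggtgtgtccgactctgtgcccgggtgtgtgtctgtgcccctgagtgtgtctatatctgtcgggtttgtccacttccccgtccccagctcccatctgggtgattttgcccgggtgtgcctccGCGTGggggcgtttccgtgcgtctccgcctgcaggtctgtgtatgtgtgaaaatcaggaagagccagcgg
NDUFA4: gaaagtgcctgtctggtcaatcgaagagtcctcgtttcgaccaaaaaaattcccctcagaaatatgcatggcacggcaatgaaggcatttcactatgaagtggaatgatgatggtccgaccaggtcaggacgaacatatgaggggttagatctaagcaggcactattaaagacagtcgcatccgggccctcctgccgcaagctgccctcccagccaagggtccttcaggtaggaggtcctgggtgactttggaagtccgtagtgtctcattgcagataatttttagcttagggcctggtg
COX6B2: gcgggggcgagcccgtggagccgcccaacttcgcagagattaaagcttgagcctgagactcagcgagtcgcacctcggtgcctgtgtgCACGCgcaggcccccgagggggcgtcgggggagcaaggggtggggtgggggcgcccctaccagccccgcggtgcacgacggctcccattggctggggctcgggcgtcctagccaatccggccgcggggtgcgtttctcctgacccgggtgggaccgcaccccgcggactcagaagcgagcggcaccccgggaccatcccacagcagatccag
ATP5MC1: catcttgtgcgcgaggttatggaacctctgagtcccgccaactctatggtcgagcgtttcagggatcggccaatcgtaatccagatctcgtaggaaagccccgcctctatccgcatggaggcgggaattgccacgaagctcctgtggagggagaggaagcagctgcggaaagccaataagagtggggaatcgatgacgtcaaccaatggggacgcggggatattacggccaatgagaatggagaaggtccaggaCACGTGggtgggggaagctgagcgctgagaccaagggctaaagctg
NDUFB4: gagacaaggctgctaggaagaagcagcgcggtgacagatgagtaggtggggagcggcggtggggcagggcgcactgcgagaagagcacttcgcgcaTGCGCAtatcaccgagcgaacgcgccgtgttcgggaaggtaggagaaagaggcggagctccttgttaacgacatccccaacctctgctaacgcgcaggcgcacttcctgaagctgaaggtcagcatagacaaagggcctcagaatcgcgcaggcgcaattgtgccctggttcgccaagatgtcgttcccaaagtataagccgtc
NDUFS4: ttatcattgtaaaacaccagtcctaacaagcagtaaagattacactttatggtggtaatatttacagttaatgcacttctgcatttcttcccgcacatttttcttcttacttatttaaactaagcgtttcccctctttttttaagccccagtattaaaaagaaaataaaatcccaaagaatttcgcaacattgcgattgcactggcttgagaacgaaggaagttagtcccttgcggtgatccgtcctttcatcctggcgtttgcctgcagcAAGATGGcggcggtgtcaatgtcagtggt

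Of the 86 genes, 70 had such a window. ACGTG or GCGTG occurred in 41 of them (58.6%), beside 58.2% of 14365 windows of protein-coding genes and 48.4% of all 27305 windows. TGCGCA occurred in 19 (27.1%), beside 11.4% of protein-coding and 8.42% of all windows. CCGGAAG also occurred in 19 (27.1%; 15.4% and 10.7%), and AAGATGG in 16 (22.9%; 6.62% and 6.06%). At least 1 of these last 3 motifs was in 37 windows of subunit genes (52.9%, and 28.9% of protein-coding windows). A match is a description of letters, not a binding site, and its absence says only that the letters are not in this window.

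Levels are given as FPKM, in which the fragments of a gene are divided by its transcript length and by the library total. A comparison between genes rests on the length used, which was not given. The 86 genes held 1.16% to 1.24% of all FPKM in each of the 6 libraries. COX8A, a small subunit of complex IV, had the highest mean of them at 629 FPKM. The highest in complex V was ATP5F1B, the catalytic beta subunit, at 415 FPKM, and in complex I NDUFS8, a core iron-sulfur protein, at 341 FPKM. UQCRC1, a core protein of complex III, led its complex at 141 FPKM, and SDHB, the iron-sulfur subunit of complex II, at 75.0 FPKM. At the low end were UQCRB of complex III (2.19 FPKM) and ATP5MGL, a paralogue of the subunit g gene ATP5MG (0.67 FPKM). Several isoforms and copies were at or near 0. COX7A1 and UQCRHL, a copy of UQCRH, were listed at 0 in every library, COX6A2 reached 0.11 FPKM in 1 library and COX7B2 0.13 FPKM in 1 library. These 4 and UQCRBP1 did not exceed 0.1 FPKM in at least 3 libraries, so 81 genes were tested. Reads of genes with near-identical copies may be shared between them, and NDUFC2 and ATP5MF share exons with the readthrough rows NDUFC2-KCTD14 and ATP5MF-PTCD1.

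After CAFR-CM, 12 of the 81 subunit genes were higher and 8 were lower than after CAFS-CM at an adjusted p under 0.05 (limma on log2(FPKM + 1), Benjamini-Hochberg adjustment over 23608 genes). That is 24.7% called, beside 26.2% of all genes tested (15.1% higher and 11.1% lower), so the share of calls was close to the background. Among genes with a mean of at least 10 FPKM, a level that 75 of the 81 reached, 18 subunit genes (24.0%) and 46.7% of 7406 genes were called. At this level 10 subunit genes were higher and 8 lower, beside 17.9% and 28.8% of genes, and 13 were above and 9 below without overlap, beside 24.3% and 37.6% (61.8% in all). All 75 lay within 0.5 of 0 on the log2 scale, beside 89.7% of genes, and none passed 1, beside 1.58% that did so at an adjusted p under 0.05. The median log2 fold change of the 81 was 0.02, with the middle 50% from -0.07 to 0.13, beside a median of 0.06 over all genes and -0.05 over genes of at least 10 FPKM. The log2 fold change was within 0.5 of 0 in 79 of the 81 (97.5%) and in 90.6% of all genes. NDUFA4L2 was the only one past 1, a size reached by 1.18% of all genes at an adjusted p under 0.05. The values of the groups did not overlap in 25 subunit genes, 16 with CAFR-CM above and 9 below, beside 43.2% of all genes (26.4% above and 16.8% below).

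How the calls divided between higher and lower depended on the scaling of the libraries. Beside 12 higher and 8 lower with FPKM as deposited, scaling the libraries to equal totals gave 8 and 7, median-of-ratios factors gave 6 and 15, and cyclic loess gave 18 and 2. The median log2 fold change of the 81 genes was -0.0014 with equal totals, -0.07 with median-of-ratios factors and 0.12 with cyclic loess. Median-of-ratios factors set the typical gene equal between libraries, and cyclic loess removes differences that follow the level of the genes. No direction for the subunit genes as a whole is therefore given. Single libraries also moved the counts, to 7 higher and 7 lower without CAFS-CM replicate 1, 8 and 3 without CAFS-CM replicate 2, 6 and 4 without CAFS-CM replicate 3, and 9 and 5 without CAFR-CM replicate 3. NDUFA4L2, COX6B2, NDUFA7, NDUFB4, NDUFS4 and ATP5MD were higher, and ATP5MC1 was lower, under each of 14 alternative settings. These 7 genes were the only ones of the 20 called under each setting. In bulk RNA, less RNA per cell and fewer cells that carry it cannot be told apart.

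**Figure D1:**
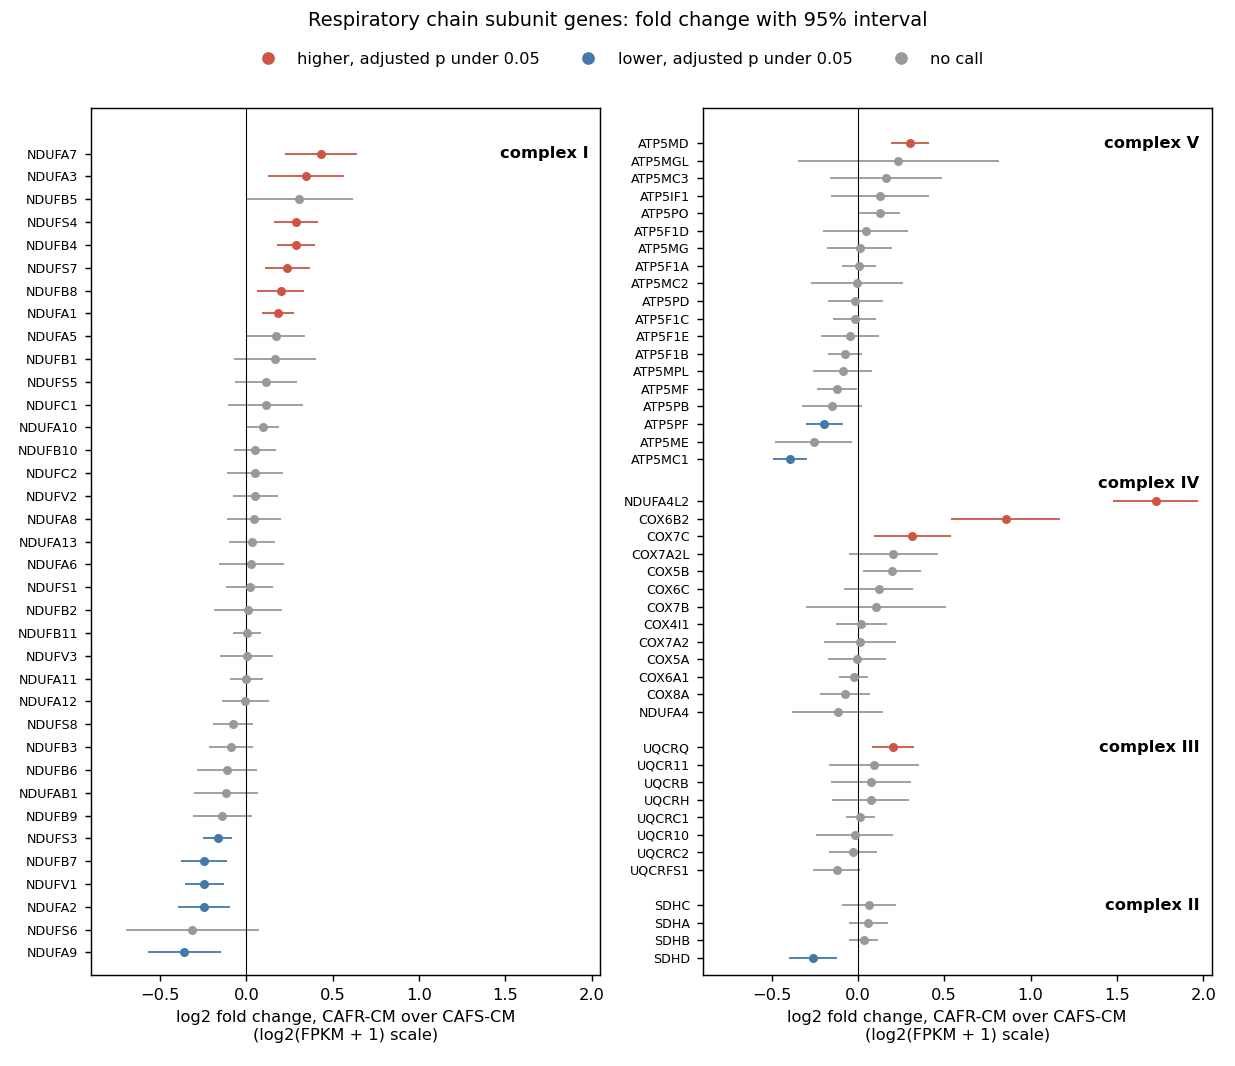
Log2 fold change (CAFR-CM over CAFS-CM, log2(FPKM + 1) scale, x axis) of the tested subunit genes, 1 left out, each with its 95% interval from limma, by complex. Red genes were higher, blue genes lower and grey genes not called at an adjusted p under 0.05. Most points lie near 0, and NDUFA4L2 (1.72) and COX6B2 (0.86) stand to the right.

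**Figure D2:**
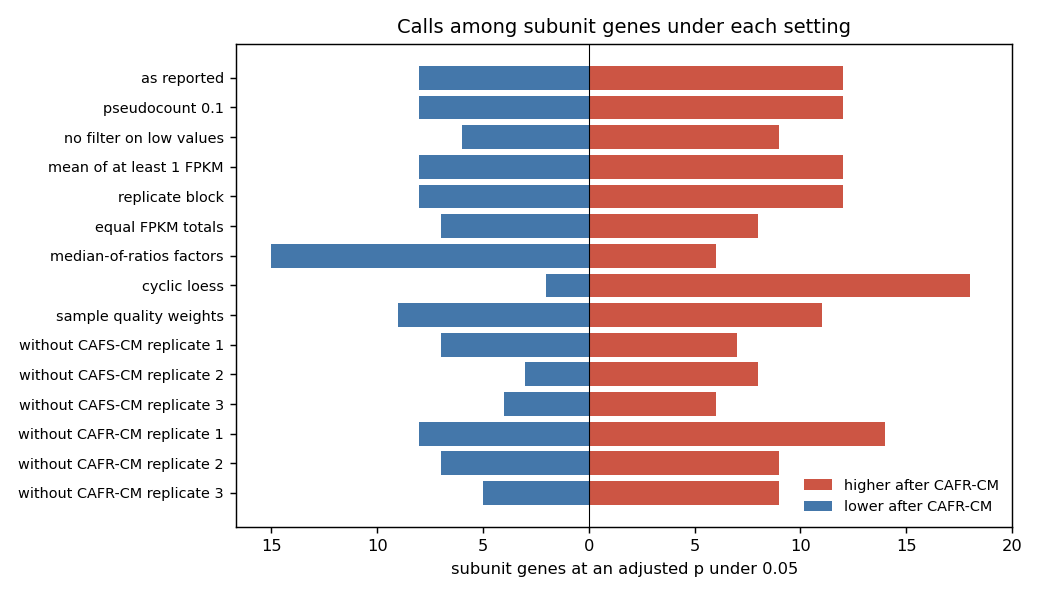
Number of subunit genes called at an adjusted p under 0.05 (x axis, from 0 in both directions) as reported and under each of the 14 settings, with genes higher after CAFR-CM in red to the right and genes lower in blue to the left. The counts run from 6 to 18 higher and from 2 to 15 lower, with both extremes of the lower genes under another scaling.

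NDUFA4L2 had the largest change. The gene (GENCODE v44, GRCh38, chromosome 12, 57234903 to 57240715, minus strand) was at 0.36, 0.33 and 0.26 FPKM in the 3 CAFS-CM libraries and at 3.46, 2.89 and 3.74 FPKM in the 3 CAFR-CM libraries. All CAFR-CM values were above all CAFS-CM values. The mean rose from 0.317 ± 0.0513 to 3.36 ± 0.433 FPKM (SD, n = 3), a ratio of 10.6. On the log2 scale the change was 1.72 with a standard error of 0.10 (limma, adjusted p = 1.0e-04), and 3.05 with a pseudocount of 0.1, since a pseudocount of 1 shrinks the change of a gene at this level. NDUFA4 (chromosome 7, 10931943 to 10940153, minus strand) was at 68.18, 58.88 and 60.99 FPKM after CAFS-CM and at 48.85, 66.34 and 58.90 FPKM after CAFR-CM. Its groups overlapped, and it was not called (log2 fold change -0.12, 95% interval -0.38 to 0.15, adjusted p = 0.487 from limma). NDUFA4L2 made up 0.502% ± 0.0693 of the summed FPKM of the pair after CAFS-CM and 5.59% ± 1.26 after CAFR-CM (SD, n = 3). NDUFA4 thus held most of the pair in each library, with 93.4% as its lowest share.

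Complex IV had 3 genes higher, NDUFA4L2 among them, and none lower of 13 tested (23.1% called, beside 26.2% of all genes tested). The counts were 2 higher and 0 lower with equal totals, 2 and 1 with median-of-ratios factors, and 4 and 0 with cyclic loess. Without CAFR-CM replicate 1, 4 were higher, and without any other library 2 were higher. COX6B2, the isoform of subunit 6B known from testis, was at 1.75, 1.85 and 1.57 FPKM after CAFS-CM and 4.81, 3.91 and 3.18 FPKM after CAFR-CM. These values did not overlap, and the mean was 2.30 times higher (log2 fold change 0.86 with a standard error of 0.13, limma adjusted p = 0.00413). COX7C, a small structural subunit, was at 122.92, 126.57 and 124.55 FPKM after CAFS-CM and at 132.06, 168.31 and 168.90 FPKM after CAFR-CM. CAFR-CM replicate 1 lay closest to the other group, and the call (0.32, adjusted p = 0.0481 from limma) held under 6 of the 14 settings. COX4I1, the subunit 4 isoform of most tissues, ran from 144.71 to 162.43 FPKM after CAFS-CM and from 150.14 to 169.19 FPKM after CAFR-CM, with a log2 fold change of 0.02 (95% interval -0.13 to 0.17) that took either sign with the scaling. COX8A and COX6A1, the most abundant genes of the complex, were not called (-0.07 and -0.02). COX5B (0.20, 95% interval 0.03 to 0.36) missed the call at an adjusted p of 0.0864 from limma, and COX7A2L, known as a factor for supercomplexes of III and IV, was uncalled at 0.20 (-0.05 to 0.46).

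**Figure D3:**
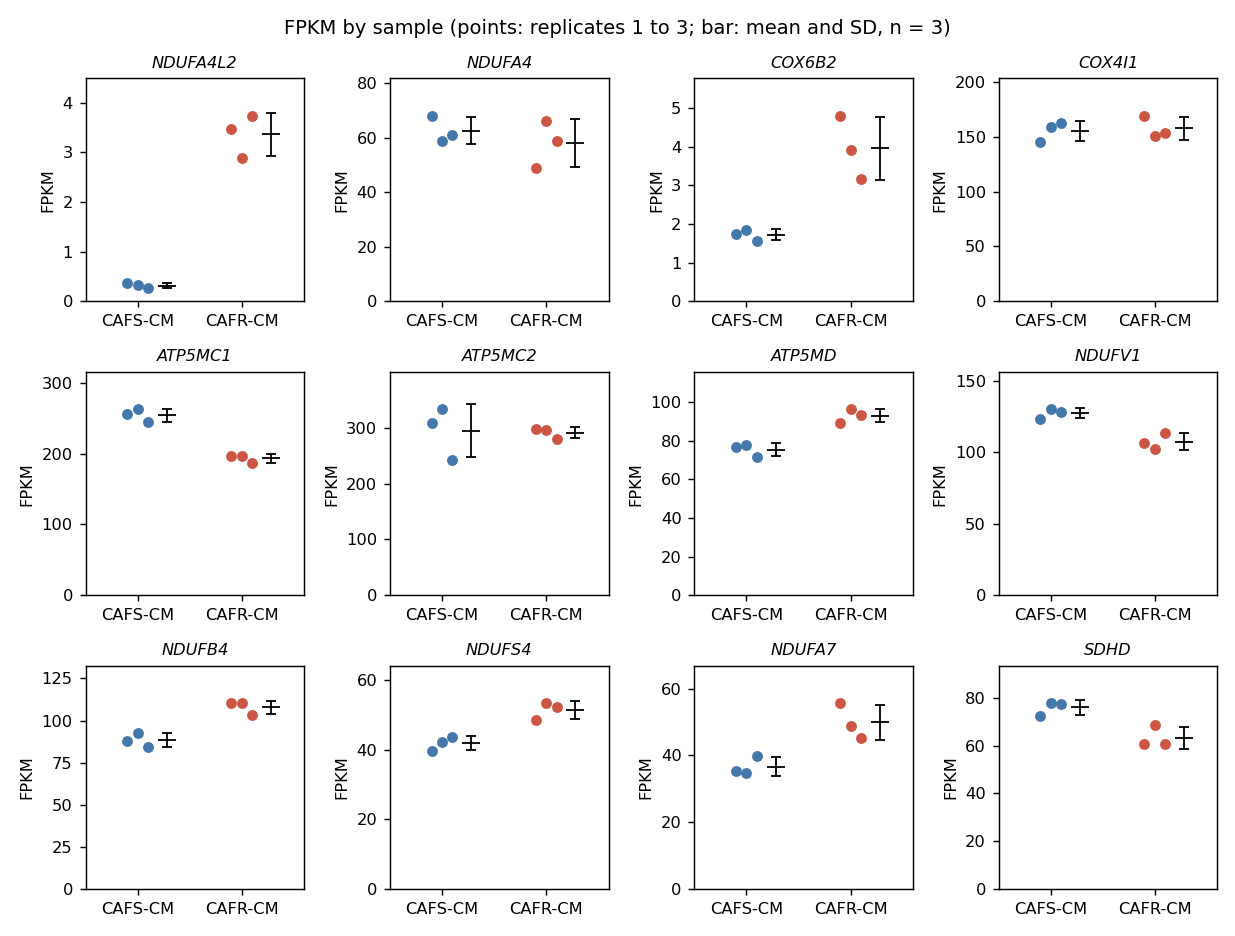
FPKM (y axis, from 0) of 12 subunit genes in each library, with points for replicates 1 to 3 of CAFS-CM (blue) and CAFR-CM (red) and black bars for the mean and SD (n = 3). NDUFA4L2 and COX6B2 are separate between the groups at levels under 5 FPKM, and NDUFA4, the abundant relative of NDUFA4L2, and COX4I1 overlap.

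Complex I had 7 genes higher and 5 lower of 37, with a median log2 fold change of 0.03. These 32.4% called stand beside 26.2% of all genes tested and 46.7% of those of at least 10 FPKM. The peripheral arm of complex I, which reaches into the matrix and oxidises NADH, had 3 higher and 4 lower of 16 (43.8% called). The membrane arm, which holds the proton channels, had 4 higher and 1 lower of 21 (23.8% called). The split moved with the scaling, to 5 higher and 4 lower in the complex with equal totals, 3 and 6 with median-of-ratios factors, and 10 and 1 with cyclic loess. Over the complex, 4 genes were higher and 4 lower without CAFS-CM replicate 1, 4 and 2 without CAFS-CM replicate 2, 3 and 3 without CAFS-CM replicate 3, and 5 and 3 without CAFR-CM replicate 3. NDUFB4, an accessory subunit of the membrane arm, was at 88.12, 92.57 and 84.08 FPKM after CAFS-CM and at 110.30, 110.13 and 103.35 FPKM after CAFR-CM. Its groups were separate (log2 fold change 0.29 with a standard error of 0.05, limma adjusted p = 0.00535). NDUFS4, an accessory subunit of the peripheral arm, was at 39.74, 42.33 and 43.77 FPKM and then at 48.59, 53.39 and 52.32 FPKM, again without overlap (0.29, adjusted p = 0.00811 from limma). NDUFA7, also of the peripheral arm, had the largest rise in the complex. It was at 35.36, 34.63 and 39.93 FPKM after CAFS-CM and at 55.64, 48.92 and 45.06 FPKM after CAFR-CM (0.43, adjusted p = 0.0119 from limma), with CAFR-CM replicate 3 nearest to the CAFS-CM values.

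Of the 5 genes of complex I that were lower with FPKM as deposited, 4 belonged to the peripheral arm. NDUFV1, which carries the NADH site and the flavin, was at 123.59, 130.16 and 128.47 FPKM after CAFS-CM and at 106.26, 102.41 and 113.90 FPKM after CAFR-CM. All CAFR-CM values were below (log2 fold change -0.24, adjusted p = 0.0102 from limma), and the call was lost with cyclic loess only. NDUFS3, a core subunit of the peripheral arm, was at 53.65, 54.51 and 55.63 FPKM and then at 47.35, 48.69 and 49.59 FPKM. This was a small fall with a narrow spread (-0.17, adjusted p = 0.0133 from limma). NDUFB7, on the membrane arm, was at 269.20, 235.43 and 236.96 FPKM after CAFS-CM and at 208.62, 210.64 and 205.47 FPKM after CAFR-CM, with no overlap (-0.24, adjusted p = 0.0206 from limma). NDUFA9, an accessory subunit near the quinone site, fell by 0.36 from a mean of 15.2 to 11.6 FPKM, and NDUFA2 fell by 0.25. The other 4 genes that were higher had log2 fold changes of 0.18 for NDUFA1, 0.20 for NDUFB8, 0.24 for NDUFS7 and 0.35 for NDUFA3, each called under 6 to 10 of the 14 settings. Among core subunits of the peripheral arm, NDUFS7 was higher, NDUFV1 and NDUFS3 were lower, and NDUFS1 (0.02), NDUFV2 (0.05) and NDUFS8 (-0.08) were not called.

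The summed FPKM of the 37 complex I genes was 3168, 3194 and 3188 after CAFS-CM and 3204, 3206 and 3229 after CAFR-CM, a ratio of 1.01 between the means. These ranges did not overlap. They did once libraries had equal FPKM totals (ratio 0.994), while median-of-ratios factors gave a ratio of 0.949. A ratio between the arms within a library does not change when the whole library is multiplied by 1 factor. Cyclic loess, which acts by the level of the genes, is not of that kind, and the ratio was not computed with it. The peripheral sum over the membrane sum was 0.493, 0.497 and 0.498 after CAFS-CM and 0.477, 0.478 and 0.467 after CAFR-CM. Each CAFR-CM library was below each CAFS-CM library, with means of 0.496 ± 0.00282 and 0.474 ± 0.00619 (SD, n = 3), and an exact two-sided permutation test of 3 against 3 samples cannot go below p = 0.1. The sums are weighted by the abundant genes. On the peripheral side the largest differences between the means were -19.9 FPKM for NDUFV1 and -18.9 FPKM for NDUFS8. The peripheral sum fell from a mean of 1056 to 1033 FPKM, by less than NDUFV1 and NDUFS8 together. The other peripheral genes thus rose in sum, and NDUFS8 was not called. The median log2 fold change was 0.01 in the peripheral arm (9 of 16 genes above 0) and 0.05 in the membrane arm (15 of 21). The lower ratio is therefore not a fall across the genes of the peripheral arm. NDUFB7, at -39.0 FPKM, went the other way from the sum of the membrane arm.

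**Figure D4:**
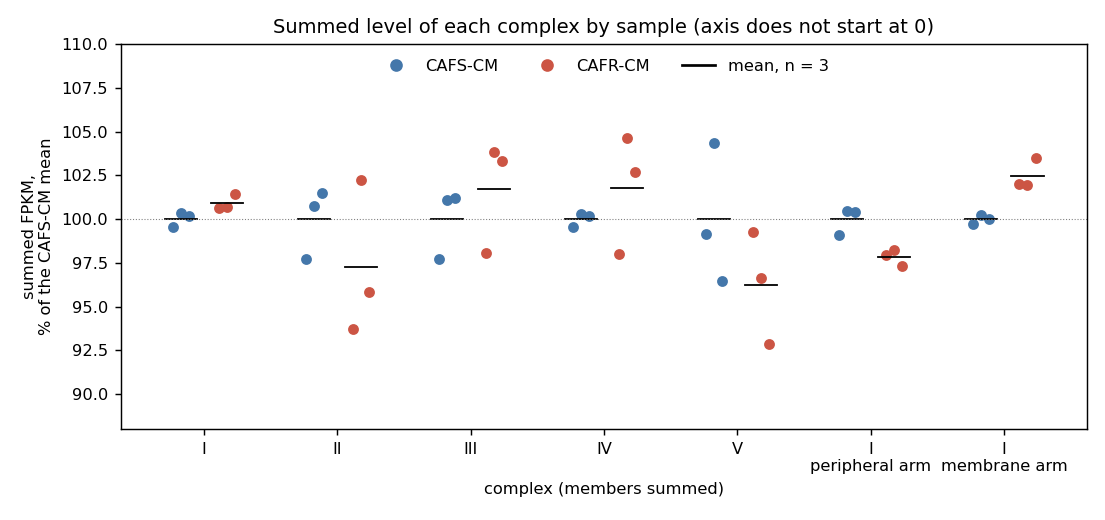
Summed FPKM of the genes of each complex and of both arms of complex I in each library, as a percentage of the CAFS-CM mean (y axis, not starting at 0), with points for libraries and lines for means (n = 3). The groups overlap for complexes II to V, and they are separate for complex I (ratio 1.01), its peripheral arm (0.978) and its membrane arm (1.02) on FPKM as deposited.

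All 4 genes of complex II, the succinate dehydrogenase, were tested. SDHD, which encodes the small membrane anchor, was at 72.56, 77.78 and 77.63 FPKM after CAFS-CM and at 60.82, 68.69 and 60.54 FPKM after CAFR-CM. It was lower without overlap (log2 fold change -0.26, adjusted p = 0.0183 from limma), and the call held under 10 of the 14 settings. The flavoprotein gene SDHA went from 39.9 ± 2.04 to 41.7 ± 1.36 FPKM (SD, n = 3), the iron-sulfur gene SDHB from 74.1 ± 1.65 to 75.9 ± 1.87 FPKM, and the other anchor gene SDHC from 51.3 ± 1.29 to 53.8 ± 4.70 FPKM. None of these 3 was called, and their 95% intervals ran together from -0.09 to 0.22. The summed FPKM of the complex had a ratio of 0.973, with overlapping groups.

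In complex III, UQCRQ, a small subunit, was the only gene called of 8 (12.5%, beside 26.2% of all genes tested). It was at 27.74, 28.84 and 26.78 FPKM after CAFS-CM and at 30.30, 32.98 and 33.21 FPKM after CAFR-CM. The groups were separate (log2 fold change 0.20, adjusted p = 0.0256 from limma), and the call held under 8 of the 14 settings. The core protein genes UQCRC1 (0.01, 95% interval -0.07 to 0.10) and UQCRC2 (-0.03, -0.16 to 0.11) and the Rieske iron-sulfur protein gene UQCRFS1 (-0.12, -0.26 to 0.01) were not called. The cytochrome c1 gene CYC1, also of this complex, is not taken by the symbol rule, so the values of complex III leave it out.

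Complex V had 1 gene higher and 2 lower of 19 (15.8% called, beside 26.2% of all genes tested). The counts were 1 higher and 6 lower with median-of-ratios factors, and 2 and 1 with cyclic loess. ATP5MC1, one of the genes that encode the c subunit of the membrane ring, had the largest fall of the subunit genes tested. The gene (chromosome 17, 48892765 to 48895871, plus strand) was at 255.99, 262.44 and 244.50 FPKM after CAFS-CM and at 196.71, 196.03 and 186.36 FPKM after CAFR-CM. The lowest CAFS-CM value was well above the highest CAFR-CM value (log2 fold change -0.40 with a standard error of 0.04, limma adjusted p = 8.79e-04). The genes ATP5MC2 and ATP5MC3 are known to encode the same mature c subunit behind different targeting peptides. ATP5MC2 was at 309.25, 333.16 and 242.23 FPKM after CAFS-CM and at 297.91, 295.42 and 279.65 FPKM after CAFR-CM, and ATP5MC3 had means of 41.0 and 46.6 FPKM. Neither was called (-0.01 and 0.16). ATP5MC1 made up 43.3% ± 2.73 of the FPKM of the 3 genes after CAFS-CM and 36.4% ± 0.715 after CAFR-CM (SD, n = 3), and the groups did not overlap. The sum of the 3 genes was 590 ± 56.8 and 531 ± 22.2 FPKM, with overlap.

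ATP5MD, a small membrane subunit of the ATP synthase also called DAPIT, was higher. It was at 76.99, 77.65 and 71.60 FPKM after CAFS-CM and at 89.32, 96.32 and 93.54 FPKM after CAFR-CM. The groups were separate (log2 fold change 0.30 with a standard error of 0.05, limma adjusted p = 0.00408). ATP5PF, of the peripheral stalk, was lower (-0.19, adjusted p = 0.0211 from limma), a call that held under 8 of the 14 settings. The 5 genes of the catalytic F1 part, ATP5F1A to ATP5F1E, were not called, with log2 fold changes between -0.07 and 0.04. ATP5IF1, which encodes the inhibitor of ATP hydrolysis, was at 11.6 ± 1.21 and 12.8 ± 2.07 FPKM (SD, n = 3) and was not called.

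On FPKM as deposited, the spread among replicates bounds the size of the changes that were not called. These bounds do not include the choice of scaling: median-of-ratios factors newly called 7 subunit genes and cyclic loess 6. The 95% interval of the log2 fold change lay within 0.5 of 0 for 57 of the 61 uncalled subunit genes and within 0.25 for 35. Of the 75 subunit genes with a mean of at least 10 FPKM, called or not, 68 (90.7%) had intervals within 0.5, beside 76.5% of all genes at that level. Replicates varied more after CAFR-CM, and this was not particular to the subunit genes. Across genes in general, log2 levels in a pair of CAFS-CM replicates differed with an SD of 0.217 to 0.220. Pairs of CAFR-CM replicates had 0.283 to 0.294. For the subunit genes, deviations from the group mean (log2 scale) had an SD of 0.0676 to 0.0753 in the CAFS-CM libraries. In the CAFR-CM libraries it was 0.102 to 0.129, with the highest value in CAFR-CM replicate 1. Subunit genes have short transcripts, with a median of 799 bases beside 3287 for other protein-coding genes tested. Over 5 classes of transcript length, the median log2 fold change of protein-coding genes ran from -0.09, for those up to 500 bases, to 0.03.

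Other genes of oxidative metabolism are given from lists of textbook members, beside 15.1% higher and 11.1% lower over all genes tested (17.9% and 28.8% of genes of at least 10 FPKM). Of 52 assembly factor genes, 3 were higher and 10 lower, so that the 25.0% called was close to the 26.2% of all genes. The counts were 1 higher and 19 lower with median-of-ratios factors, 1 and 3 without CAFS-CM replicate 2, and 1 and 5 without CAFS-CM replicate 1. From 6 to 7 were lower without CAFS-CM replicate 3, CAFR-CM replicate 1 or CAFR-CM replicate 3. SDHAF1, which helps to load iron-sulfur clusters into SDHB, fell by 0.60, and BCS1L, which inserts the Rieske protein into complex III, fell by 0.45. COX20, a chaperone of the COX2 protein, rose by 0.49. TMEM70, which assists the assembly of ATP synthase, fell by 0.46 (adjusted p from 8.15e-04 to 0.0198 from limma for these 4). Of 18 genes for electron carriers and coenzyme Q synthesis, 1 was higher (ETFDH, 0.29) and 2 were lower, among them COQ8A (-0.50). CYC1 of complex III was counted in this list (means of 122.9 and 115 FPKM, -0.10, not called). Of 13 genes of the citric acid cycle, 7 were lower and none higher (4 lower without CAFS-CM replicate 2), with a median of -0.16. IDH3A, a subunit of isocitrate dehydrogenase, fell by 0.44 and the citrate synthase gene CS by 0.26. With cyclic loess, 5 were lower and 1 was higher, and with median-of-ratios factors 9 were lower.

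Of 13 genes for regulators of mitochondrial biogenesis, 6 were lower and none was higher (3 lower with cyclic loess). YY1 fell by 0.61 from 27.1 to 17.4 FPKM, and TFB2M, a mitochondrial transcription factor, fell by 0.66 from 8.77 to 5.19 FPKM. The other factors named at the start did not fall with YY1. NRF1 (0.18) and the GABP genes GABPA (0.09) and GABPB1 (0.36) were above 0 and not called. So were TFB1M (0.51) and PPARGC1A (0.21), while TFAM (-0.10) and PPARGC1B (-0.11) were below 0 and not called. Of 78 genes of the mitochondrial ribosome, 30 were lower and 4 higher (43.6% called, median -0.14), and of 82 tested genes of the cytosolic ribosome 12 were lower and 2 higher (17.1% called, median -0.02). Over all genes tested 26.2% were called, and 46.7% of those of at least 10 FPKM. With median-of-ratios factors the mitochondrial genes had 45 lower and 2 higher and the cytosolic genes 23 lower and none higher. With cyclic loess the mitochondrial genes had 19 lower and 5 higher and the cytosolic genes 3 lower and 21 higher. Without a library, from 5 (CAFS-CM replicate 2 or 3) to 10 cytosolic genes were lower. The difference between these lists and the subunit genes was not tested. Of 12 genes known to respond to hypoxia, many of them linked to mitochondria, 10 were higher and none lower, with a median of 1.32. PDK1, whose kinase limits pyruvate entry into the citric acid cycle, rose by 2.17, LONP1, a mitochondrial protease gene, by 0.85 and BNIP3, a mitophagy receptor gene, by 2.55. HIGD1A, of the same list, was at 54.9 and 54.3 FPKM and was not called.

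**Figure D5:**
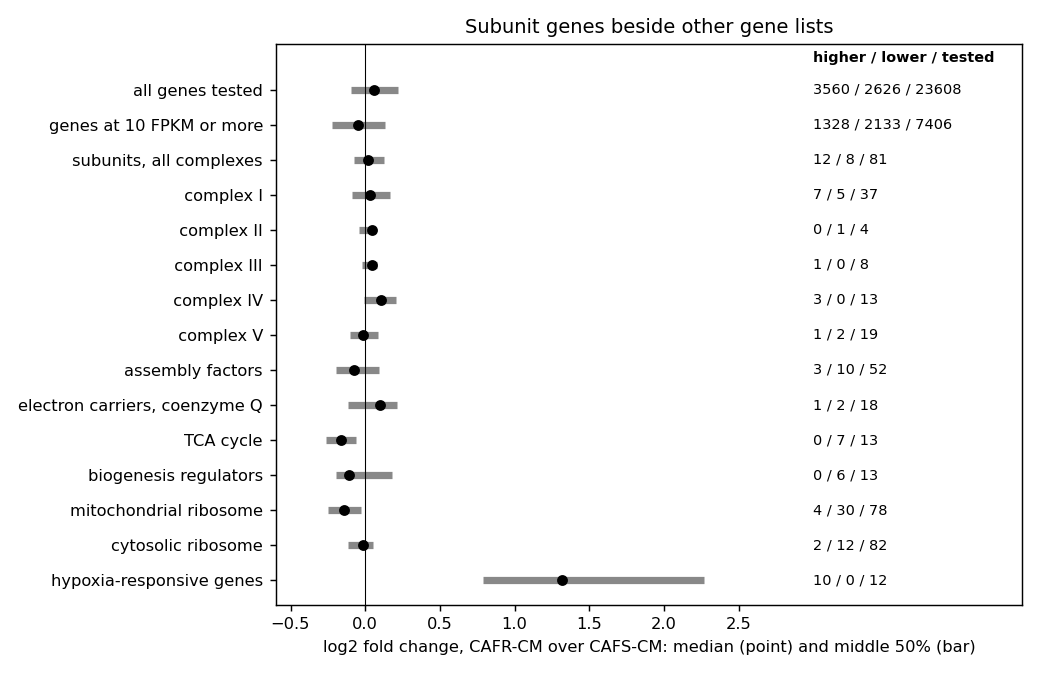
Median (point) and middle 50% (bar) of the log2 fold change, CAFR-CM over CAFS-CM, of the tested genes in each list, with the numbers higher, lower and tested at the right. The medians of the 5 complexes lie between -0.02 and 0.10, and that of the genes known from hypoxia is at 1.32.

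The libraries were similar in total, with 660604 to 701406 FPKM, and their depth is unknown since the table holds no counts. All 6 epithelial markers were found, with 2 called higher (CDH1, 0.73, and EPCAM, 0.76) and 2 lower (KRT18, -0.31, and KRT19, -0.17). Their summed level, most of it from KRT8 and KRT18, was 5922 to 6163 FPKM after CAFS-CM and 4959 to 5172 FPKM after CAFR-CM. Of 11 fibroblast markers, 5 passed the filter and COL1A1 was called higher (0.49). Their sum was 96.0 to 102 FPKM after CAFS-CM and 104 to 115 FPKM after CAFR-CM. Most of it came from FBLN1 (means of 54.5 and 53.9 FPKM), COL3A1 (21.4 and 24.6 FPKM) and COL1A1 (20.4 and 29.0 FPKM). FBLN1, COL3A1 and THY1 (2.74 and 2.51 FPKM) were not called. PDGFRB reached 0.74 FPKM in CAFR-CM replicate 2, while COL1A2, DCN and PDGFRA were under 0.1 FPKM in each library and FAP was listed at 0. Leukocyte markers summed to 32.5 to 36.2 FPKM and 36.2 to 40.8 FPKM, and endothelial markers to 1.51 to 1.63 FPKM and 2.09 to 2.50 FPKM. Most of the leukocyte sum came from CD68 (means of 32.6 and 37.3 FPKM, not called), and PTPRC did not exceed 0.01 FPKM in any library. Most of the endothelial sum came from KDR (means of 1.41 and 2.13 FPKM), which was called higher (0.37, adjusted p = 0.0245 from limma). The part of these markers in the results was not tested.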

How the data were processed

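RNA of Panc-1 cells from 6 samples, 3 per group, was analysed. The authors deposited FPKM with 2 decimals for each gene. By the methods and the submitters' processing notes, SOAPnuke was used to filter reads, HISAT2 (2.0.4) to map them to GRCh38.p13 and RSEM (1.2.12) to quantify genes. Bowtie2 (2.2.5) is also named, and the authors used DESeq2 (1.4.5). The annotation and strand setting were not given in the sources used here. Values in FPKM hold no counts, so the depth is unknown and count-based tests were not run. Since FPKM are relative to the library total, abundant RNAs can move the values of all others.

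The table has 97767 rows, of which 55272 for circular RNAs hold no value here. For the 23608 of 42495 genes above 0.1 FPKM in at least 3 samples, log2(FPKM + 1) was fitted with limma (3.58.1, R 4.3.3) with a mean-variance trend and the group as the only term, two-sided, and p-values were adjusted over all of them by the Benjamini-Hochberg method. A fold change on this scale understates the change of low genes. The fit was tested on simulated data with 50 genes changed at each size. It called 9 of them at 1.25-fold, 31 at 1.5-fold, 39 at 2-fold and all 50 at 4-fold. Of 23408 unchanged genes, 6 were called. A small change can therefore go uncalled. Far fewer genes were changed there than were called here, so these rates need not hold for the real data. Intervals are 95% intervals of the fit.

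The subunit genes, the other lists and the markers were chosen with earlier results of these data known. Genes named are NDUFA4L2, NDUFA4 and COX4I1, the most abundant gene of each complex and all of complex II. In each complex, up to 3 genes higher and 3 lower with the smallest adjusted p are also named. Of the other lists, some of the genes with the smallest adjusted p are named. Further genes, of the subunits and of the other lists, were named after their values were seen, and some genes that the rule takes are left out. Of the subunit genes, 1 that is counted in the totals is not reported here by itself. The planned value for COX4I2 and the list of mitochondrially encoded genes were not analysed here. Coordinates of genes and transcript lengths are from GENCODE v44 (GRCh38), and promoter windows are from RefSeq (GRCh38.p14, first window per gene). ATP5MD and ATP5MPL are ATP5MK and ATP5MJ there. The alternatives were a pseudocount of 0.1, no filter, a mean of at least 1 FPKM, a replicate block, equal FPKM totals, median-of-ratios factors, cyclic loess, sample quality weights and leaving out each library.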

Additional observations from a re-analysis of the deposited data

How the results depend on the processing

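Of the 20 calls among subunit genes, 7 held under all 14 settings. With median-of-ratios factors, 6 subunit genes were higher and 15 lower, with cyclic loess 18 and 2. Leaving out each library in turn gave 6 to 14 higher (6 without CAFS-CM replicate 3, 7 without CAFS-CM replicate 1) and 3 to 8 lower (3 without CAFS-CM replicate 2, 4 without CAFS-CM replicate 3, 5 without CAFR-CM replicate 3). Without a filter on low values, 9 were higher and 6 lower. The median log2 fold change of complex I was 0.0106 with equal totals, -0.0552 with median-of-ratios factors and 0.109 with cyclic loess. In the same order it was 0.0227, -0.0429 and 0.0969 for complex III. With median-of-ratios factors and cyclic loess, it was -0.0394 and 0.131 for complex II, 0.0184 and 0.139 for complex IV, and -0.103 and 0.0930 for complex V. Quality weights gave 0.0631 for complex IV. Leaving out libraries gave -0.0018 to 0.0563 for complex III and 0.0397 to 0.130 for complex IV. The log2 fold change of COX4I1 was -0.0014 with equal totals, -0.0672 with median-of-ratios factors and, without a library, from -0.0317 (without CAFR-CM replicate 1; -0.0287 without CAFS-CM replicate 1) to 0.0541.

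The ratios of summed FPKM, with scalings added after seeing the data, were 0.949 (complex I), 0.915 (II), 0.957 (III), 0.957 (IV), 0.906 (V), 0.920 (peripheral arm) and 0.964 (membrane arm) with median-of-ratios factors. With equal totals they were 0.994 (complex I), 0.963 (peripheral arm) and 1.01 (membrane arm). For complex IV they ran from 1.00 to 1.04 when a library was left out. For assembly factors, carriers, the citric acid cycle and regulators together, 4 were higher and 25 lower of 96. The number higher was 8 with a mean of at least 1 FPKM, 2 with equal totals and 2 with median-of-ratios factors, and 2 to 6 without a library (2 without CAFS-CM replicate 1 or 2). The number lower was 38 with median-of-ratios factors and 14 to 26 without a library (14 without CAFS-CM replicate 2). The cause was not tested.

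The replicate numbers did not pair the samples: deviations of samples with the same number had correlations of 0.02, -0.03 and 0.06 across genes. With a replicate block, 12 subunit genes were higher and 8 lower, with NDUFA3 lost and 1 other gained. Unknown depth limits what can be said of genes near 0 such as COX7B2.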
